A study of Citrus maxima with 6 samples.

Results

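The genes described here were higher in every library of an orange-pericarp mutant than in every wild-type library of pummelo, and their mutant values stood in 1 fixed, graded order. RNA-Seq had been run on the ripe pericarp, the fruit peel, of the "Guanxi" pummelo (WT) and of its orange-pericarp mutant (MT), with 3 biological replicates of each genotype, called MT1 to MT3 and WT1 to WT3. No treatment was given. MT is a single spontaneous bud-mutation line of the same cultivar, kept by grafting, whose peel holds more β-carotene, so every MT library stands for that 1 line. The sources used here do not say how many fruits went into a library.

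The unit is RPKM, the reads of a gene per kilobase of its length, scaled to the reads of the library. A gene was taken when its RPKM was at least 1 in all 6 libraries, its mean over the 6 was under 500, and its values followed the order highest WT < MT3 < MT1 < MT2. MT2 also had to be at least 2 times MT3 and at least 4 times the highest WT library. Of 29406 genes in the table, 70 met these conditions. A set of 9 genes treated elsewhere was left out, 4 of which met the conditions, and 66 genes remained. The genes were therefore selected on their RPKM values in all 6 libraries, MT and WT. Every MT level, MT to WT ratio and ratio between MT libraries given here for them is a description and carries no test.

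The rule asks for an order between replicates, and replicates of 1 genotype have no order of their own. MT1, MT2 and MT3 are names of libraries, not steps of a treatment or a time course. In whole-peel RNA, a larger share of cells that express a gene and more of its RNA per cell cannot be told apart. Fruit peel is a layered tissue. Its outer coloured part carries the epidermis with stomata, oil glands and plastid-rich cells, over a white spongy part.

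Depth was alike in the 6 libraries. The number of reads behind the RPKM scale, inferred from the RPKM values, lay between 9787390 and 11108186 in MT and between 9253681 and 10347017 in WT. The share of all RPKM held by the 10 most abundant genes was 18.6% to 20.8% in MT and 16.6% to 19.2% in WT. Only stomatal lineage and epidermis genes that the study ties to an identifier were available as cell type markers, and no marker of the peel as a whole was checked. MUTE (Cs9g06130), a transcription factor of the stomatal lineage, had 2.25, 3.67 and 5.62 RPKM in MT1, MT2 and MT3, against 24.99, 21.2 and 23.3 RPKM in WT1, WT2 and WT3. The secreted stomatal peptide EPFL9 (Cs7g16890) had 1.01, 1.59 and 0.573 RPKM in the MT libraries and was listed at 0 in all 3 WT libraries. The epidermal homeobox gene HDG5 (Cs3g09300) had 16.5, 25.3 and 12.7 RPKM in MT, against 2.02, 2.37 and 1.93 RPKM in WT. HDG5 and EPFL9 followed the same MT order as the 66 genes, while MUTE had its highest MT value in MT3. The part of these cell types in the graded profile was not tested.

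Summed over the 66 genes, the level was 2110 RPKM in MT1, 4344 RPKM in MT2 and 1425 RPKM in MT3, against 498.4, 621.0 and 539.6 RPKM in WT1, WT2 and WT3. That was 0.320%, 0.666% and 0.215% of all RPKM in the MT libraries, against 0.0755%, 0.0970% and 0.0803% in the WT libraries. The median gene of the 66 had 16.6, 35.8 and 12.4 RPKM in MT1, MT2 and MT3, against 3.89, 4.69 and 4.12 RPKM in WT1, WT2 and WT3. Over the 13155 genes that had at least 1 RPKM in all 6 libraries and a mean under 500, the median gene was nearly level, with 15.1, 16.4 and 15.8 RPKM in MT and 14.9, 13.7 and 14.2 RPKM in WT.

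**Figure D1:**
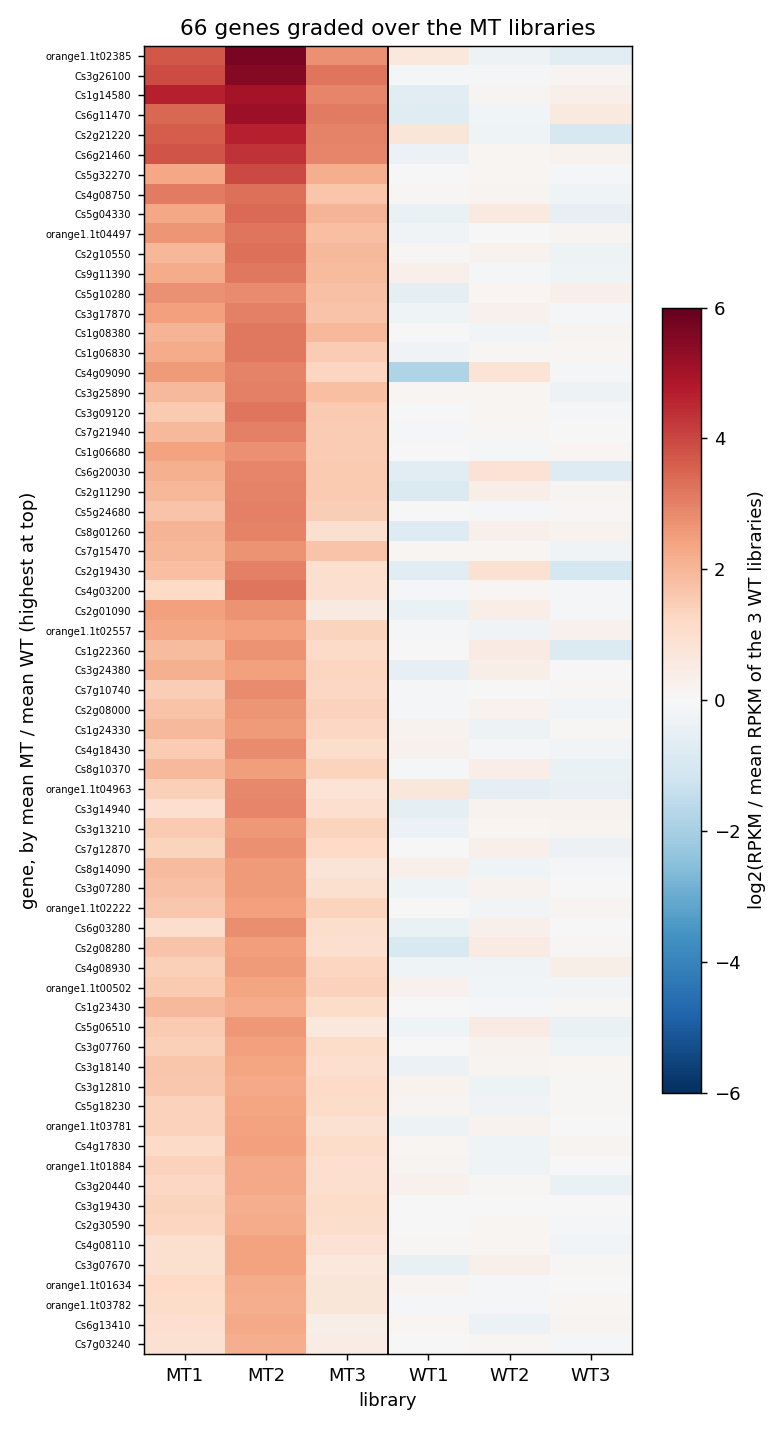
Heat map of the 66 genes (rows, ordered by the ratio of mean MT to mean WT RPKM, highest at the top) in the 6 libraries (columns), where colour gives log2 of RPKM over the gene's mean in the 3 WT libraries. MT2 is the darkest column in every row because the rule required it, and the median gene has 35.8 RPKM there, against 12.4 RPKM in MT3 and 3.89 to 4.69 RPKM in the WT libraries.

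The ratio of mean MT to mean WT RPKM was 4.08 at the median of the 66 genes and ran from 2.57 to 23.96. It was at least 10 for 6 genes, at least 5 for 19 genes and under 4 for 30 genes. MT2 was 2.75 times MT3 at the median and 7.67 times at most. MT1 was 1.37 times MT3 at the median, with a range of 1.01 to 3.81. Within genotypes, the coefficient of variation was 52.6% over the MT libraries and 18.0% over the WT libraries at the median gene. It was larger in MT than in WT for 63 of the 66 genes, a count that the limit on MT2 over MT3 favours, and for 58.2% of the 13155 genes. For those 13155 genes the medians were 16.6% in MT and 14.3% in WT.

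The lowest MT library was not always far above WT. MT3 was 1.96 times the highest WT library at the median, at least 2 times for 32 genes and under 1.5 times for 11 genes. The closest approach, singled out after its values were seen, was Cs2g19430, with 8.57, 19.6 and 4.68 RPKM in MT1, MT2 and MT3, against 1.52, 4.61 and 1.19 RPKM in WT1, WT2 and WT3. Its MT3 value was 1.02 times its WT2 value, and rested on 52 reads, against 53 reads in WT2.

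All 66 genes have every MT library above every WT library by the rule, where 23.0% of the 13155 genes do. In limma on log2(RPKM + 0.5), fitted to 16719 genes with Benjamini-Hochberg adjustment over all of them, 41 of the 66 were higher in MT at an adjusted p under 0.1, against 2.02% of all genes. At an adjusted p under 0.05 the count was 1 of the 66, Cs6g21460, against 0.0179% of all genes. These counts come from the contrast that chose the genes and are given without reading anything from them. Cs6g21460 had 72.6, 110 and 40.5 RPKM in MT1, MT2 and MT3, against 4.16, 5.75 and 6.18 RPKM in WT1, WT2 and WT3. It was no longer called without MT1, without any 1 of the WT libraries, or in limma voom on the recovered reads.

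Names came from Swiss-Prot matches in the study's list of differentially expressed genes, of which 291 rows were used here. These are fewer than the differentially expressed genes that the paper reports. A gene given here as not in the list is a gene outside these rows. The study chose that list by a test on these same libraries, so its counts are no independent evidence of a direction. Of the 291 genes, 128 (44.0%) had all MT libraries above all WT libraries and 156 (53.6%) had all below. Of the 289 that limma could test, 115 (39.8%) were higher and 63 (21.8%) lower in MT at an adjusted p under 0.1. The groups of the list below are read beside these shares, and no group was tested against the others. The list holds 17 of the 66 genes, against 291 of all 29406 genes, and 16 of the 17 have a match. Both sets were chosen on these libraries, so nothing is read from this share. The other listed gene and the 49 genes not in the list have no name here. A match gives the closest known protein, mostly from Arabidopsis, and the roles below are those of that protein.

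The plant cell wall is a mesh of cellulose, xylan and pectin whose polysaccharides other than cellulose are made in the Golgi and carried to the surface in vesicles. A group of 3 named genes matched proteins of this kind. Cs3g24380 matched the galacturonosyltransferase-like protein GATL1, a glycosyltransferase needed for normal xylan in Arabidopsis. It had 57.7, 71.3 and 31.3 RPKM in MT1, MT2 and MT3, against 9.11, 17.2 and 12.7 RPKM in WT1, WT2 and WT3. Its MT1 value was near MT2, at 1.84 times MT3, and the mean of MT was 4.11 times that of WT. Cs4g08750 matched FLA1, a fasciclin-like arabinogalactan protein of the cell surface, and had 14.3, 16.4 and 5.30 RPKM in MT, against 1.70, 1.86 and 1.38 RPKM in WT. MT3 was the library that stood apart here, since MT2 was 3.09 times MT3 but only 1.14 times MT1. Cs8g10370, which matched the putative Golgi methyltransferase PMT21, had 9.22, 13.5 and 5.94 RPKM in MT, against 2.24, 3.11 and 1.81 RPKM in WT. In the study's list, 8 genes carried cell wall or pectin names. Of these, 7 had all MT libraries above all WT libraries, against 44.0% of the whole list, and 1 had all below. At an adjusted p under 0.1, 6 were higher, against 39.8% of the list, and 0 lower in MT. Cs1g16550, a pectinesterase 3 match among the 8, met the conditions and was among the genes left out. It had 89.6, 175 and 73.1 RPKM in MT, against 27.9, 17.8 and 9.45 RPKM in WT.

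Vesicle traffic and protein folding were each represented by a single gene. Cs1g14580 matched the beta′-2 subunit of coatomer, the coat of vesicles that return material from the Golgi to the endoplasmic reticulum. It had 70.9, 87.5 and 20.7 RPKM in MT1, MT2 and MT3, against 1.71, 3.13 and 3.43 RPKM in WT1, WT2 and WT3. The mean was 59.7 ± 34.8 RPKM in MT and 2.76 ± 0.917 RPKM in WT (SD, n = 3 each), a ratio of 21.7. These values rest on 1043, 1146 and 269 reads in the MT libraries, against 21, 42 and 47 reads in the WT libraries. MT1 was 3.42 times MT3, with a 95% interval of 2.98 to 3.92 that covers counting error only. Cs5g10280 matched BAG1, a co-chaperone that binds Hsp70. It had 13.9, 14.4 and 6.81 RPKM in MT, against 1.37, 2.24 and 2.51 RPKM in WT. MT2 and MT1 were alike within counting error for this gene, with a ratio of 1.04 and an interval of 0.861 to 1.26, so that MT3 alone was low among the MT libraries.

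The multicopper oxidase-like gene Cs2g21220 matched an L-ascorbate oxidase homolog known from the pollen of Brassica napus. It had 29.1, 59.5 and 18.4 RPKM in MT1, MT2 and MT3, against 3.87, 1.94 and 1.20 RPKM in WT1, WT2 and WT3. Its mean was 35.7 ± 21.3 RPKM in MT and 2.34 ± 1.38 RPKM in WT (SD, n = 3 each), a ratio of 15.3. WT1 was the highest of the WT libraries for this gene, and even that value was far under the lowest MT value. All 3 ascorbate oxidase homologs in the study's list had every MT library above every WT library, against 44.0% of the whole list. All 3 were higher at an adjusted p under 0.1, against 39.8%.

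Sequences were at hand for Cs5g10280 and Cs2g21220 alone, as the primers with which the study measured them by quantitative real-time PCR. They are shown as the only designed sequences tied to genes of this group. They were not aligned to any transcript, and they are written 5′ to 3′ in lower case throughout.
Cs5g10280 forward: ccgctggcgcaagct
Cs5g10280 reverse: acaaaacggcaggaaaggaa
Cs2g21220 forward: tctttgtccggttctactttaagtca
Cs2g21220 reverse: cgggcgttacggtattcttc
The forward primer of the BAG1 match has 11 G or C in 15 bases, and that of the oxidase match 10 in 26 bases. The reverse primers have 20 bases each, with 9 and 11 G or C. No real-time PCR value was used.

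Transport was represented by Cs5g04330, which matched the peptide and nitrate transporter At5g62680, a member of the NRT1/PTR family that carries glucosinolates in Arabidopsis. It was the most abundant of the named enzymes and carriers, with 100, 209 and 82.1 RPKM in MT1, MT2 and MT3, against 15.2, 30.01 and 14.1 RPKM in WT1, WT2 and WT3. WT2 was the highest WT library for this gene, while the rule fixed MT2 as the highest MT library. The study's list held 22 transporter and channel genes, of which 10 lay wholly above and 12 wholly below WT, close to the 44.0% and 53.6% of the whole list. At an adjusted p under 0.1, 8 of them were higher, against 39.8% of the list, and 4 lower in MT. Cs5g04330 was the only one of them among the 66 genes.

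Enzymes of small-molecule metabolism made up a group of 3. Orange1.1t04497 matched the chloroplast D-3-phosphoglycerate dehydrogenase, which opens the phosphorylated pathway of serine synthesis. It had 16.1, 23.7 and 8.97 RPKM in MT1, MT2 and MT3, against 2.18, 2.62 and 2.85 RPKM in WT1, WT2 and WT3. The gene with the next identifier, orange1.1t04496, is one of the genes left out. It matched the same enzyme and had a like profile, with 12.6, 16.2 and 7.89 RPKM in MT, against 2.11, 2.51 and 2.93 RPKM in WT. How reads were split between these 2 similar genes is uncertain, although the authors used uniquely mapped reads. Cs7g15470 matched CYP89A2, a cytochrome P450 monooxygenase, with 23.9, 39.0 and 19.3 RPKM in MT, against 6.42, 6.38 and 5.11 RPKM in WT. Its neighbour Cs7g15480 matched the same P450 and had 11.6, 25.5 and 12.3 RPKM in MT, against 1.89, 2.15 and 1.45 RPKM in WT. MT3 was above MT1 in the neighbour, which kept it out of the 66. Of 10 P450 genes in the study's list, 6 lay wholly above WT, against 44.0% of the whole list, and 3 wholly below. At an adjusted p under 0.1, 5 were higher, against 39.8% of the list, and 1 lower in MT. Cs1g06680 matched a bacterial demethylmenaquinone methyltransferase, an enzyme of quinone synthesis in bacteria. It had 17.1, 21.9 and 9.31 RPKM in MT, against 3.24, 2.96 and 3.53 RPKM in WT, and its WT values were among the most even of the named genes.

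A transcription factor, an RNA-binding protein and 2 further proteins are given next. Cs3g17870 matched ATHB-5, a homeodomain-leucine zipper transcription factor tied to abscisic acid responses in Arabidopsis. It had 44.3, 65.6 and 26.6 RPKM in MT1, MT2 and MT3, against 6.62, 9.75 and 7.73 RPKM in WT1, WT2 and WT3. Of 18 transcription-related genes in the study's list, 11 lay wholly above WT, against 44.0% of the whole list, and 7 wholly below. At an adjusted p under 0.1, 10 were higher, against 39.8% of the list, and 3 lower. ATHB-5 was the only one of them among the 66 genes, and HDG5, one of the 9 genes left out, had the same order with MT2 at 1.99 times MT3. RAP2-7 (Cs8g17390), also left out, had the same order at 27.6, 27.8 and 16.4 RPKM in MT, against 5.60, 7.64 and 8.98 RPKM in WT, with MT2 at 1.69 times MT3. Orange1.1t02557 matched RNA-binding protein 24-B of Xenopus laevis, in animals a regulator of mRNA stability and splicing. It had 35.6, 39.6 and 18.0 RPKM in MT, against 6.76, 6.18 and 8.50 RPKM in WT. MT2 was 1.11 times MT1 in this gene, with a counting interval of 0.976 to 1.27. Cs1g23430 matched the BTB/POZ protein At5g66560, of a family that often links targets to ubiquitin ligases, with 15.4, 18.5 and 8.51 RPKM in MT, against 4.13, 3.74 and 4.16 RPKM in WT. Cs9g11390 matched At3g47200, a UPF0481 protein of unknown function, with 13.1, 25.4 and 10.3 RPKM in MT, against 3.44, 2.65 and 2.35 RPKM in WT.

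A protease and a defence protein were the remaining named genes. Orange1.1t00502 matched ASPG1, an aspartic protease of guard cells that acts in drought avoidance in Arabidopsis. It had 8.68, 15.4 and 7.65 RPKM in MT1, MT2 and MT3, against 3.56, 2.67 and 2.66 RPKM in WT1, WT2 and WT3. Of 4 protease genes in the study's list, 3 lay wholly above WT, against 44.0% of the whole list, and 1 wholly below. At an adjusted p under 0.1, 2 were higher, against 39.8% of the list, and 1 lower in MT. Cs3g12810 matched the disease resistance protein At4g27220, an intracellular immune receptor of the nucleotide-binding leucine-rich repeat class. It had the lowest MT2 value of the 66 genes, with 4.18, 6.46 and 2.99 RPKM in MT, against 1.57, 1.09 and 1.40 RPKM in WT. Its MT2 value rested on 220 reads and its WT2 value on 38 reads. Immune receptors and receptor kinases were the largest group of the study's list by these names, with 28 genes, of which 26 could be tested. Of the 28, 22 lay wholly above WT, against 44.0% of the whole list, and 6 wholly below. At an adjusted p under 0.1, 19 of the 26 were higher, against 39.8% of the list, and 1 lower in MT. Only 6 of the 22 had at least 1 RPKM in all 6 libraries, so few of them could enter the graded group.

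Other groups of the study's list had no gene among the 66. Of 14 lipases, wax and lipid enzymes, 8 lay wholly above and 6 wholly below WT, and of 8 hormone pathway genes 5 lay above and 3 below. For these groups and the next, the shares of the whole list were 44.0% above and 53.6% below. The 8 cytoskeleton genes, 7 of which lay wholly above WT, contributed none, and 2 tubulin genes that met the conditions, Cs8g03680 and Cs1g21050, were among the genes left out. These 2 had MT1, MT2 and MT3 values of 42.2, 68.8 and 28.4 RPKM and of 41.3, 69.9 and 28.3 RPKM.

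**Figure D2:**
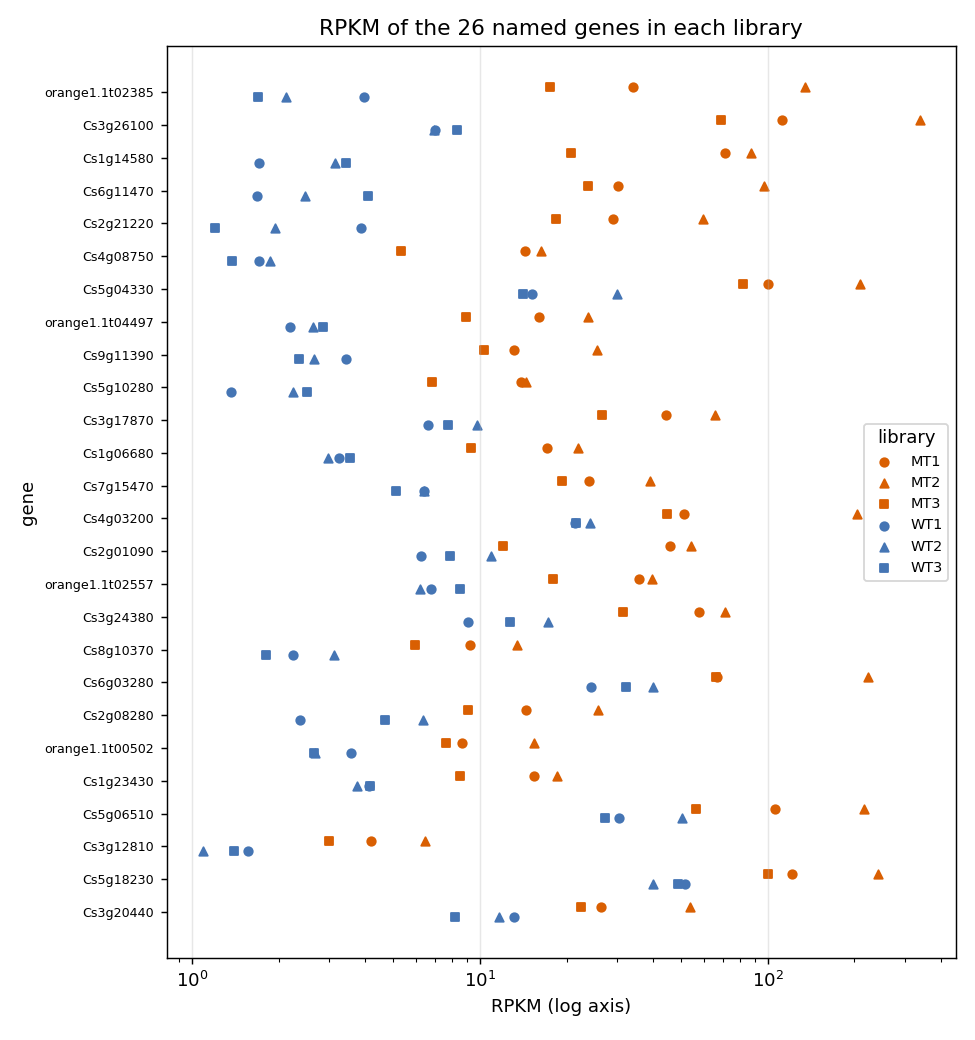
RPKM (log axis) of the 26 genes named by rule in each library, MT in orange and WT in blue, with circles for replicate 1, triangles for replicate 2 and squares for replicate 3, and genes ordered by the ratio of mean MT to mean WT from 23.96 at the top. Orange triangles (MT2) lie rightmost in every row, orange circles (MT1) fall close to the triangle in Cs5g10280 and close to the square (MT3) in Cs6g03280, and no blue point reaches an orange one.

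Of the 5 genes with the largest ratio of mean MT to mean WT, 3 had no name. Orange1.1t02385 had 33.9, 135 and 17.6 RPKM in MT1, MT2 and MT3, against 3.97, 2.11 and 1.70 RPKM in WT1, WT2 and WT3. Its mean was 62.1 ± 63.5 RPKM in MT and 2.59 ± 1.21 RPKM in WT (SD, n = 3 each), a ratio of 23.96. It also had the steepest grade, with MT2 at 7.67 times MT3 (95% counting interval 6.67 to 8.86), and its SD in MT was as large as its mean there. Cs3g26100 had 112, 337 and 68.8 RPKM in MT, against 7.004, 6.92 and 8.31 RPKM in WT. Its mean of 173 RPKM in MT was the highest of the 66 genes, and MT2 held 2519 of its 3971 reads in MT. Cs6g11470 had 30.1, 97.0 and 23.7 RPKM in MT, against 1.68, 2.46 and 4.07 RPKM in WT, and a ratio of means of 18.4. The gene beside it by identifier, Cs6g11460, had 7.38, 23.2 and 7.997 RPKM in MT, against 0.790, 1.30 and 2.69 RPKM in WT.

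Steep grades were also seen in 2 genes whose ratios of mean MT to mean WT, 4.478 and 4.465, lay nearer the median of the 66 genes, 4.08. Cs4g03200 had 51.3, 204 and 44.9 RPKM in MT1, MT2 and MT3, against 21.4, 24.1 and 21.6 RPKM in WT1, WT2 and WT3. MT1 and MT3 lay close together, and MT2 was 3.98 times MT1. Cs2g01090 had the opposite shape, with 45.7, 54.3 and 11.99 RPKM in MT, against 6.27, 10.96 and 7.86 RPKM in WT. Its MT3 value lay near its WT2 value, while MT1 was 3.81 times MT3, the highest such ratio of the 66. These genes show that a near-equal ratio of MT2 to MT3, 4.55 and 4.53, went with an MT1 value near either end.

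The genes with the highest mean over the 6 libraries differed in the place of MT1. Cs5g18230 had 122, 242 and 100.3 RPKM in MT1, MT2 and MT3, against 51.5, 39.9 and 48.6 RPKM in WT1, WT2 and WT3. Cs6g03280 had 66.8, 223 and 66.4 RPKM in MT, against 24.4, 39.9 and 32.1 RPKM in WT. Its MT1 and MT3 values were equal within counting error, at a ratio of 1.01 with an interval of 0.924 to 1.09 from 1170 and 1025 reads. Cs5g06510 had 106, 216 and 56.5 RPKM in MT, against 30.5, 50.2 and 27.3 RPKM in WT, with WT2 the highest WT library.

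The remaining 40 genes, the 26 given by rule aside, had MT values of 2.63 to 185 RPKM and WT values of 1.15 to 36.7 RPKM. Their ratio of mean MT to mean WT ran from 2.57 to 13.8 with a median of 3.92, and MT2 was 2.12 to 4.198 times MT3. The mean over 6 libraries of all 66 genes ran from 2.85 to 101 RPKM, with a median of 12.2 RPKM. Their reads summed to between 87 and 13330 per gene in MT and between 33 and 2936 per gene in WT. In the library where a gene had fewest reads, this number was 59.5 at the median and 8 at the lowest.

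Genes lay close to the ratio limits on either side. Nearest inside the limit of 2 for MT2 over MT3 stood orange1.1t00502 at 2.01 and Cs7g15470 at 2.02. Nearest outside stood orange1.1t04788 at 1.96 and Cs2g02640, a match of the receptor kinase SRF8, at 1.93. Cs2g02640 had 35.0, 57.8 and 29.96 RPKM in MT1, MT2 and MT3, against 5.88, 8.23 and 10.9 RPKM in WT1, WT2 and WT3. For MT2 over the highest WT library, with a limit of 4, the nearest inside were Cs2g08280 at 4.05 and Cs3g20440 at 4.09. Cs2g08280 had 14.4, 25.7 and 9.12 RPKM in MT, against 2.37, 6.34 and 4.69 RPKM in WT, and Cs3g20440 had 26.4, 53.7 and 22.5 RPKM in MT, against 13.1, 11.7 and 8.22 RPKM in WT. The nearest outside were Cs7g29270 at 3.99 and orange1.1t03997, a match of the P450 geraniol 8-hydroxylase, at 3.95. Orange1.1t03997 had 16.4, 20.9 and 9.62 RPKM in MT, against 3.13, 5.29 and 4.76 RPKM in WT.

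The place of MT1 between the other MT libraries was left free by the rule and varied widely. On a log scale that runs from 0 at MT3 to 1 at MT2, MT1 lay at 0.303 at the median gene, at 0.005 in Cs6g03280 and at 0.946 in Cs5g10280. MT1 was nearer to MT2 in 17 of the 66 genes and nearer to MT3 in 49. Genes in the study's list had MT1 at a median of 0.566, against 0.256 for genes not in it. Among the 17 listed genes 10 had MT1 nearer to MT2, against 7 of the 49 others. MT2 was 2.28 times MT3 at the median listed gene, against 2.91 times for the others, and MT1 was 1.67 times MT3, against 1.32 times. The study chose its list by a test on these same libraries, so this contrast is a description and was not tested.

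**Figure D3:**
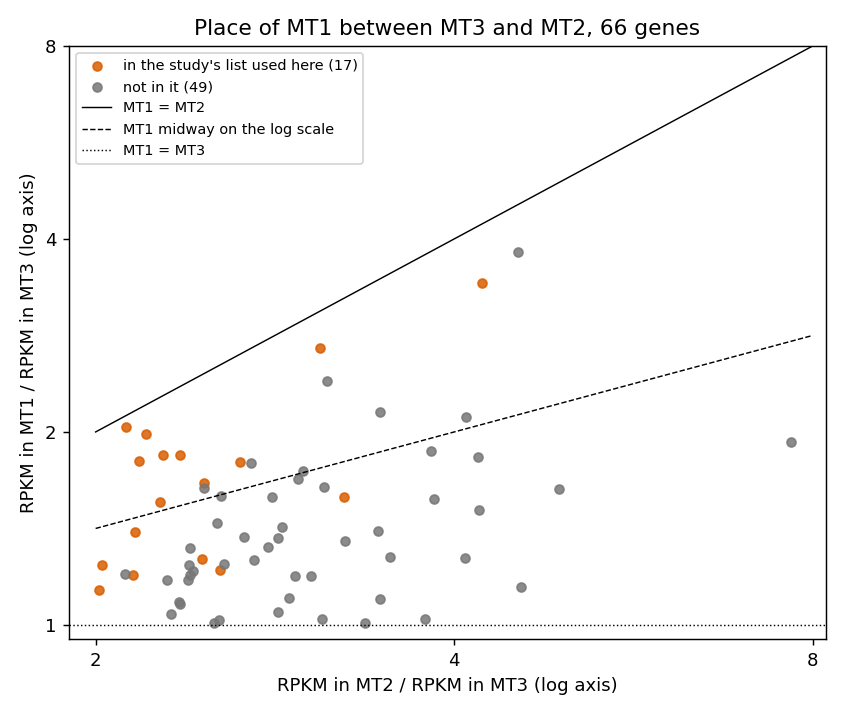
Ratio of MT1 to MT3 RPKM against the ratio of MT2 to MT3 RPKM for the 66 genes (log axes), with the 17 genes of the study's list in orange and the 49 others in grey. The dashed line marks MT1 midway on the log scale, above which lie 10 of the 17 orange points and 7 of the 49 grey points.

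Counting error alone leaves the order of some genes open. The 95% interval of MT1 over MT3 included 1 in 21 of the 66 genes, whose ratios ran from 1.01 to 1.51. That of MT2 over MT1 included 1 in 3 genes, Cs4g08750, Cs5g10280 and orange1.1t02557. These intervals leave out all variation between fruits and between libraries. The rule fixed the direction of both steps, so the intervals are given as a measure of depth, and not as a test of the order.

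On the deposited values, the order that defines the group was the most frequent one among genes higher in MT. The orders were not counted again on rescaled values. Of the 3032 genes with all MT libraries above all WT libraries, 1290 (42.5%) had the order MT3 < MT1 < MT2 and 915 (30.2%) the order MT1 < MT3 < MT2. MT2 was thus the highest library in both leading orders. The other 4 orders held 103 to 362 genes each. With the ratio limits applied in the same way to the highest and lowest MT library, 70 genes had MT3 < MT1 < MT2, 55 had MT1 < MT3 < MT2, 7 had MT3 < MT2 < MT1 and 1 had MT2 < MT3 < MT1. Over all 13155 genes, whatever their WT level, the leading orders held 21.3% and 23.3%. The mirrored conditions, for genes lower in MT in the same grade, were met by 48 genes.

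**Figure D4:**
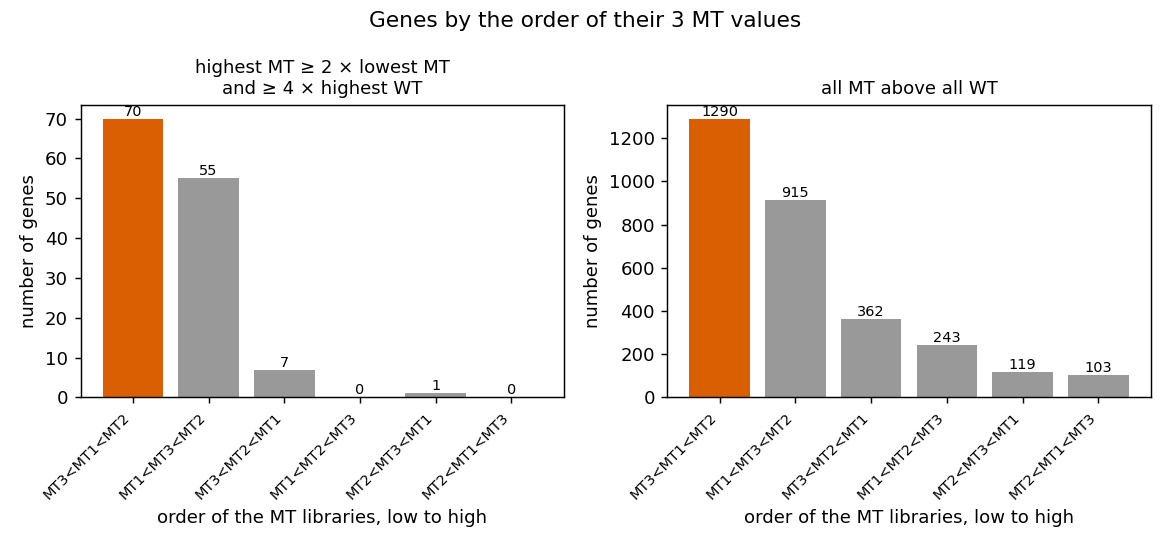
Number of genes with each order of the 3 MT libraries, low to high, among genes whose highest MT library is at least 2 times the lowest and at least 4 times the highest WT library (left) and among all genes with every MT library above every WT library (right). The order of the 66 genes, in orange, holds 70 genes on the left before 4 were left out, and 1290 on the right.

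The WT libraries were outside the ordering conditions except through their highest value. Among the 66 genes WT2 was the highest WT library in 32 (48.5%), against 24.2% of the 13155 genes. WT1 was the highest in 15 (22.7%), against 44.6% of the 13155 genes, and WT3 in 19 (28.8%), against 31.2%. Relative to the mean of the 3 WT libraries, WT1, WT2 and WT3 stood at 0.964, 1.07 and 0.988 for the median of the 66 genes, against 1.04, 0.949 and 1.005 over the 13155 genes. The rescaling of libraries by their median ratio moved the share of all genes with WT2 highest to 35.2%, and the count among the 66 to 37. This profile is a description of 3 libraries with no replicate of its own.

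A WT level that varied by 2 times or more between libraries was seen in 13 of the 66 genes (19.7%), against 8.33% of the 13155 genes. The 2 sets were not matched for level. The WT medians of the 66 genes were 3.89 to 4.69 RPKM, against 13.7 to 14.9 RPKM, and counting error is larger at low levels. WT2 was the highest in 8 of these 13, and in 40.9% of the 1096 genes of that kind overall. The examples here were singled out after their values were seen. Cs4g09090 had 78.6, 102 and 32.8 RPKM in MT1, MT2 and MT3, against 3.72, 23.5 and 12.4 RPKM in WT1, WT2 and WT3, which was the widest WT range of the 66 at 6.31 times. Cs6g20030 had 38.7, 67.9 and 26.8 RPKM in MT, against 5.55, 16.2 and 5.16 RPKM in WT. In both genes WT2 was the highest WT library.

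**Figure D5:**
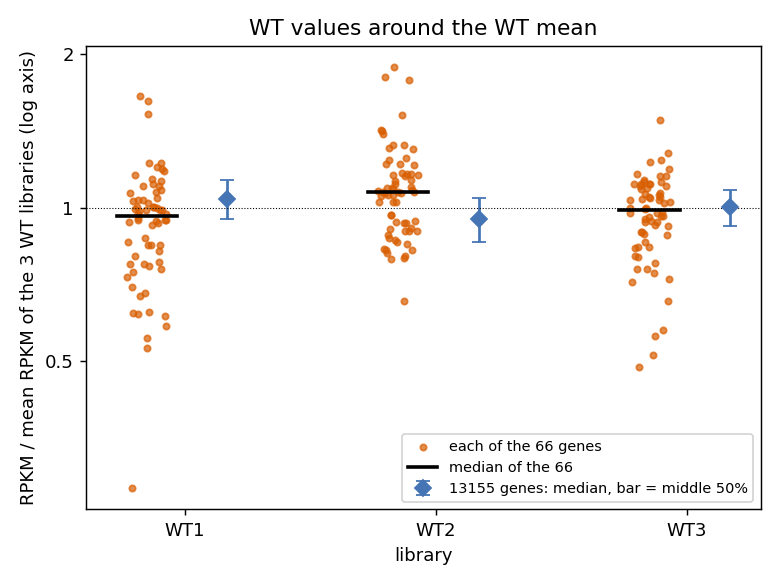
RPKM in each WT library over the gene's mean in the 3 WT libraries (log axis), with a point for each of the 66 genes, a black bar at their median and a blue diamond with a bar for the median and the middle 50% of 13155 genes. For WT1, WT2 and WT3 the medians of the 66 genes are 0.964, 1.07 and 0.988, against 1.04, 0.949 and 1.005 for the 13155 genes.

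Other properties were compared without a test. The gene length inferred from the RPKM values was 1684 bp at the median of the 66 genes, with a range of 324 to 5142 bp, against 1789 bp for the 13155 genes. By the prefix of their identifiers, which names a chromosome of the sweet orange assembly, 14 of the 66 (21.2%) were on chromosome 3, against 10.5% of the 13155 genes. The other prefixes held 1 to 8 genes each, and 10 genes had identifiers not placed on a chromosome.

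Among 132 identifiers directly before or after a gene of the group, 61 had at least 1 RPKM in all 6 libraries. Of these 61, 3 met the rule themselves. Of the other 58, 18 (31.0%) had every MT library above every WT library, against 23.0% of the 13155 genes, which was not tested. One pair of neighbours belonged to the group together. Orange1.1t03781 had 12.4, 25.8 and 9.08 RPKM in MT1, MT2 and MT3, against 3.86, 5.60 and 4.90 RPKM in WT1, WT2 and WT3. Orange1.1t03782 had 8.74, 18.8 and 6.91 RPKM in MT, against 3.89, 3.99 and 4.51 RPKM in WT. Neighbours outside the group included Cs1g22350, a match of the TMV resistance protein N, beside Cs1g22360. It had 3.58, 6.86 and 3.26 RPKM in MT, against 0.311, 0.982 and 0.202 RPKM in WT, and missed the minimum of 1 RPKM. Cs2g11280, a match of a patatin group A-3 lipid hydrolase, stood beside Cs2g11290 and had 14.5, 25.4 and 15.4 RPKM in MT, against 1.93, 4.56 and 3.45 RPKM in WT. Its MT2 value was also the highest, but MT3 was above MT1.

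The scale between libraries bears on which genes belong. The median-ratio factors were 1.01, 1.13 and 1.07 in MT1, MT2 and MT3, against 0.997, 0.908 and 0.954 in WT1, WT2 and WT3, and the median gene was 0.149 higher in MT on the log2 scale. After division by these factors, the order of MT3 below MT1 held in all 66 genes and that of MT1 below MT2 in 65. Every MT library was then above every WT library in 63 of the 66, and in 60 after quantile normalization. All conditions, the ratio limits included, were met by 37 of the 66 after division by the median ratios and by 41 after quantile normalization.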

How the data were processed

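RNA from ripe pericarp was sequenced as 100 bp single-end reads in 6 libraries. After cleaning, the authors mapped reads with TopHat and a Bowtie index on the genome of sweet orange (Bowtie2 2.1.0 in the submitters' processing notes), and they deposited RPKM computed from uniquely mapped reads. The read counter, its strand setting and the gene lengths are not given in the sources used here, so antisense reads cannot be told apart. Pummelo reads were aligned to another species, which can lower the values of diverged genes.

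The rule was applied to the deposited RPKM in Python 3.11.15 (numpy 2.4.6, pandas 2.3.3, scipy 1.17.1, matplotlib 3.10.9). The smallest steps between RPKM values gave back whole reads, within 0.005 reads, from which came the exact conditional 95% intervals. Library totals and gene lengths were inferred from the same steps. Each length was the shortest at which all reads of a gene were whole. Lengths and reads can therefore be understated for genes with few reads. The background of calls came from limma 3.58.1 under R 4.3.3 on log2(RPKM + 0.5), keeping genes whose RPKM averaged 0.3 or more, eBayes with a trend, no block, Benjamini-Hochberg adjustment. The procedure was tested on simulated data in which MT and WT had the same spread, taken from the WT libraries. The wider MT spread of the genes described here was not simulated. The pseudocount understates changes of low genes. Adjusted p under 0.1 was used for lists after the counts at 0.05 were known.

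Genes were named by a rule, namely every member with a Swiss-Prot match, the 5 with the largest mean MT over mean WT, the 5 with the largest MT2 over MT3, the 5 with the highest mean, and the 2 nearest on either side of each ratio limit. The members and lists were chosen with earlier results of these data known. Alternatives covered scaling, minimum values, ratio limits, pseudocount, filter, block, limma voom on recovered reads, and leaving out each library. All 6 columns of values were used. Names and membership were taken from the study's list, and its fold changes and p-values were not used.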

Additional observations from a re-analysis of the deposited data

How the results depend on the processing

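The number of genes that met the rule, 66 on the deposited values, was 41 after division by the median ratios, 110 with a minimum of 0.3 RPKM and 35 with a minimum of 3 RPKM. It was 24 with MT2 at least 3 times MT3, and 120 or 25 with MT2 at least 3 or 6 times the highest WT library. With the conditions on a library dropped, it ran from 79 (without WT3) to 1907 (without MT2), with 123 without MT1, 133 without MT3 and 105 without WT2. It was 51 after quantile normalization and 64 of the 66 genes remained after equal sums. The median ratio of mean MT to mean WT, 4.08, ran from 2.96 to 4.97 with a library left out.

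The count of limma calls at an adjusted p under 0.05, 6 genes, was 10 with a pseudocount of 0.1, 11 with median ratios and 12 with quantile normalization. Limma voom on recovered reads gave 0, with 3580 genes at an unadjusted p under 0.05. Leaving out a library gave 0 to 863 calls, with 11 without MT2. The 863 came without MT3, when 55 of the 66 genes were called, and the 0 without WT1, without WT2 or without WT3, with 2711, 2977 and 2260 genes at an unadjusted p under 0.05. The cause was not tested. With the replicate number as a block, 122 genes were called, 21 of them among the 66. Deviations of same-numbered libraries correlated at −0.046, 0.193 and 0.158, and those of differently numbered libraries at −0.286 to 0.157. These correlations were not tested and do not settle whether the numbers pair samples. The labels name no pairing, so the main fit had no block.

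The log2 difference of the 26 named genes ran from 1.07 to 4.65 under other settings and moved by at most 0.813, or by at most 0.242 with another pseudocount. Its sign is fixed by the rule when a library is left out, and says nothing of stability. At this depth, a difference between MT1 and MT3 was not detectable beyond counting error in 21 of the 66 genes. Their reads in MT ran from 87 to 5679 per gene and their ratios of MT1 to MT3 from 1.01 to 1.51. They thus include near-equal values at many reads as well as genes with few reads.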
